A study of Mus musculus with 12 samples.

Results

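The genes described here are 8 markers of mast cells. They encode the granule proteases Cpa3, Cma1, Mcpt4, Tpsb2 and Tpsab1, the IgE receptor chains Fcer1a and Ms4a2, and the histamine-synthesising enzyme Hdc. Members were found by gene symbol: every probe of the arrays was taken whose transcript accession belongs to one of the 8 genes in the RefSeq gene table. This gave 8 of 55681 probes, covering 7 of the 8 genes, with 2 probes for Tpsb2 and none matched for Tpsab1. The probes of 6 genes (Cpa3, Cma1, Mcpt4, Tpsb2, Fcer1a and Hdc) were well above background on at least 3 arrays and entered the tests over 16181 genes.

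The study asked what the transcription factor Sox4 contributes to hair regrowth and to activation of follicle stem cells after plucking. Skin of 12 male mice of a mixed C57Bl6/129Sv background (75:25) was taken 12 days after plucking, and total RNA of each mouse was hybridised to 1 one-colour array. The wild type (WT) group of Exp 1 held 3 mice aged 69 to 72 weeks, and the conditional Sox4 knockout (cKO) group of Exp 1 held 3 mice aged 68 to 72 weeks. The 3 WT mice of Exp 2 were aged 18 to 20 weeks and the 3 cKO mice 16 to 18 weeks. Effects of age and of experiment therefore cannot be told apart. The labels place the knockout in skin. The sources used here do not give the Cre driver or the cell type that lost the gene, so whether mast cells themselves carried the deletion is not known. All groups were plucked, and no unplucked skin was analysed here.

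Mast cells are resident cells of the dermis that store proteases, histamine and heparin in granules and release them when IgE bound to their surface receptor meets its antigen, or when peptides engage Mrgprb2. In connective tissue such as skin, the granules hold the chymases Mcpt4 and Cma1, the tryptases and carboxypeptidase A3. Mast cells lie close to hair follicles, and their number and degranulation are known to vary over the hair cycle. In whole skin, fewer mast cells and less RNA per mast cell cannot be told apart.

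The 75th percentile of the array signal lay between 364 and 554 intensity units, and 53.9% to 62.6% of probes were well above background per array. Levels below are log2 signal minus that percentile of the same array, so a level of 0 equals it, and the number of arrays limits the precision. The deleted gene matched its labels in every mouse: the brighter of 2 Sox4 probes read 1.90 to 2.43 in the 6 WT mice and -4.26 to -2.55 in the 6 cKO mice. Keratinocyte markers, which define the labelled tissue, averaged between 6.13 and 7.54 in every mouse. Skeletal muscle transcripts differed widely between mice. The mean of 15 muscle genes was -3.79 to -2.65 in WT mice of Exp 1, -2.64 to 0.785 in cKO mice of Exp 1, and 4.81 to 6.03 in Exp 2, except for WT mouse 5 at -0.649.

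The promoters of Cpa3, Cma1, Mcpt4 and Hdc are shown because the levels of the first 3 followed each other from mouse to mouse and Hdc had the largest difference relative to its error between genotypes. They run from 250 bases before to 50 bases after the annotated start, are taken from RefSeq on build GRCm38.p6, and are written 5′ to 3′. Capitals mark GATAA on either strand (TTATC on the other), the core motif of GATA factors, which direct mast cell genes.
Cpa3, chr3:20242132-20242431, minus strand: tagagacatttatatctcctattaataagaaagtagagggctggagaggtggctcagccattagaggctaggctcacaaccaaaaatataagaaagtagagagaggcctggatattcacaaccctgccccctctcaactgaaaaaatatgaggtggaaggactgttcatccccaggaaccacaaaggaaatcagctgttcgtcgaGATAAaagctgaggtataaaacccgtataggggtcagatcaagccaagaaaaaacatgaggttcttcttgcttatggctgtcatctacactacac
Cma1, chr14:55944626-55944925, minus strand: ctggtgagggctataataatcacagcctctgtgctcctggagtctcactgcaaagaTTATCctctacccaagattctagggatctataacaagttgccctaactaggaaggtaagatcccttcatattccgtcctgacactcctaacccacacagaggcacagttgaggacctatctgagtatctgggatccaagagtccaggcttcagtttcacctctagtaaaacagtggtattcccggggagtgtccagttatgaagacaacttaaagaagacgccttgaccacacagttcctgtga
Mcpt4, chr14:56062261-56062560, minus strand: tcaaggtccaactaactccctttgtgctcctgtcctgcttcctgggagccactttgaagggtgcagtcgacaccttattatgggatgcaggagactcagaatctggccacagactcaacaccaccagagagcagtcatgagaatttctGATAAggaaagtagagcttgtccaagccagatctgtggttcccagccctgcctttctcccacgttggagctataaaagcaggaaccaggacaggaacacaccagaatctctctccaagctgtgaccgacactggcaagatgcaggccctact
Hdc, chr2:126618629-126618928, minus strand: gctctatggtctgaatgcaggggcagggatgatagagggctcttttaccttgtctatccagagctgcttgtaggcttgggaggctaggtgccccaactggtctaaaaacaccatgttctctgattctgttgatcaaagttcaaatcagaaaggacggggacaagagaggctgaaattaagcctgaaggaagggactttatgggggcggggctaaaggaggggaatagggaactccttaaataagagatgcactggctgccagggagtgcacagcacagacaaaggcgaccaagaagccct
Of the 8 genes, 6 had a promoter in the table, and 5 of these held GATAA, against 25.3% of 32544 promoters of the same length. The match began at position -45 from the start in Cpa3, -194 in Cma1 and -102 in Mcpt4, and Hdc had no match in this window. Both Cpa3 and Mcpt4 also held TATAAA close to the start, at -31 and -32, a motif found on either strand in 13.6% of promoters. The motif CATGTG or CACGTG, which the mast cell factor MITF can bind, was found on either strand in 1 of the 6 promoters (Fcer1a) and in 20.5% of all promoters. These matches describe letters in a window, not bound sites.

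The genotype comparison asked whether skin lacking Sox4 differed in these transcripts. The estimated cKO minus WT difference was positive for 5 of the 6 tested genes and for 42.3% of all genes. The median was 0.308 over the 6 and -0.0353 over all genes. Cpa3, Cma1 and Mcpt4 followed each other from mouse to mouse, so their estimates are not separate results. None of the 6 passed the test (limma, Benjamini-Hochberg adjusted over all genes), in the difference averaged over both experiments, within Exp 1, within Exp 2 or in the interaction. The test called 0.42% of all genes for the averaged difference, 0.117% within Exp 1, 0.0618% within Exp 2 and 0.00618% for the interaction. At an unadjusted p under 0.05 it took in 1 of the 6 members for the averaged difference (Hdc; 12.2% of all genes), 1 within Exp 1 (also Hdc; 11.3%), 0 within Exp 2 (4.67%) and 0 for the interaction (3.16%).

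Carboxypeptidase A3, encoded by Cpa3, trims C-terminal residues from peptides and is stored with the chymases. Its level was 1.29, 0.041 and 0.57 in WT mice 1, 2 and 3 and 1.01, 1.66 and 0.74 in cKO mice 2, 5 and 6 of Exp 1. In Exp 2 it was 1.09, 1.31 and 0.94 in WT mice 4, 5 and 6 and 1.65, 1.26 and 0.83 in cKO mice 1, 3 and 4. WT mouse 2 was the lowest of the 12, cKO mice 1 and 5 were the highest, and the genotypes overlapped in both experiments. The averaged difference was 0.32 ± 0.24 (SE; limma adjusted p = 0.61), with a 95% interval from -0.21 to 0.844.

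Mcpt4 encodes mast cell protease 4, the mouse chymase closest in function to human chymase. It read 3.27, 2.04 and 2.51 in WT mice 1, 2 and 3 and 3.31, 3.40 and 2.67 in cKO mice 2, 5 and 6 of Exp 1. In Exp 2 it read 3.15, 3.34 and 2.85 in WT mice 4, 5 and 6 and 3.54, 3.23 and 2.81 in cKO mice 1, 3 and 4. The lowest mouse was again WT mouse 2 and the highest cKO mouse 1, and the genotypes overlapped in each experiment. The averaged difference was 0.30 ± 0.23 (SE; limma adjusted p = 0.612), with a 95% interval from -0.201 to 0.80.

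Cma1 encodes mast cell chymase 1 (mast cell protease 5), a chymase-family protease with elastase activity in mice. In Exp 1 its level was -0.40, -1.86 and -1.08 in WT mice 1, 2 and 3 and -0.47, -0.40 and -0.89 in cKO mice 2, 5 and 6. In Exp 2 it was -0.51, -0.49 and -0.67 in WT mice 4, 5 and 6 and 0.31, -0.50 and -0.99 in cKO mice 1, 3 and 4. The 3 WT mice of Exp 2 lay close together inside the range of the 3 cKO mice. The averaged difference was 0.34 ± 0.27 (SE; limma adjusted p = 0.621), with a 95% interval from -0.246 to 0.935.

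Within Exp 1 the differences of Cpa3, Cma1 and Mcpt4 were 0.50, 0.53 and 0.52, with limma adjusted p of 0.582, 0.61 and 0.552. Within Exp 2 they were 0.13, 0.16 and 0.08, and those of Cpa3 and Mcpt4 turned to -0.00849 and -0.061 when arrays were centred on their medians. The larger values in Exp 1 do not show a difference between experiments: the interactions of 0.37, 0.36 and 0.44 had SE of 0.475, 0.532 and 0.451 and an adjusted p of 1 each. Leaving out WT mouse 2, the lowest for all 3 genes, gave averaged differences of 0.169 for Cpa3, 0.157 for Cma1 and 0.159 for Mcpt4.

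Tpsb2 encodes tryptase beta 2, a tetrameric protease held on heparin in the granule, and was the 1 member read by 2 probes. The brighter probe read 0.0059, -0.74 and -0.28 in WT mice 1, 2 and 3 and 0.32, -0.61 and -0.53 in cKO mice 2, 5 and 6 of Exp 1. In Exp 2 it read -0.088, 0.041 and 0.15 in WT mice 4, 5 and 6 and 1.31, 0.49 and -0.13 in cKO mice 1, 3 and 4. The genotypes overlapped in each experiment, and cKO mouse 1 was again the highest. The genotype difference was 0.30 ± 0.25 (SE; limma adjusted p = 0.655).

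Tpsab1 encodes the related tryptase alpha/beta 1, and no probe was matched to it. The RefSeq table lists it as a transcribed pseudogene. A Tpsb2 probe could also read transcripts of so close a relative, which makes both Tpsb2 probes uncertain in this respect.

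**Figure D1:**
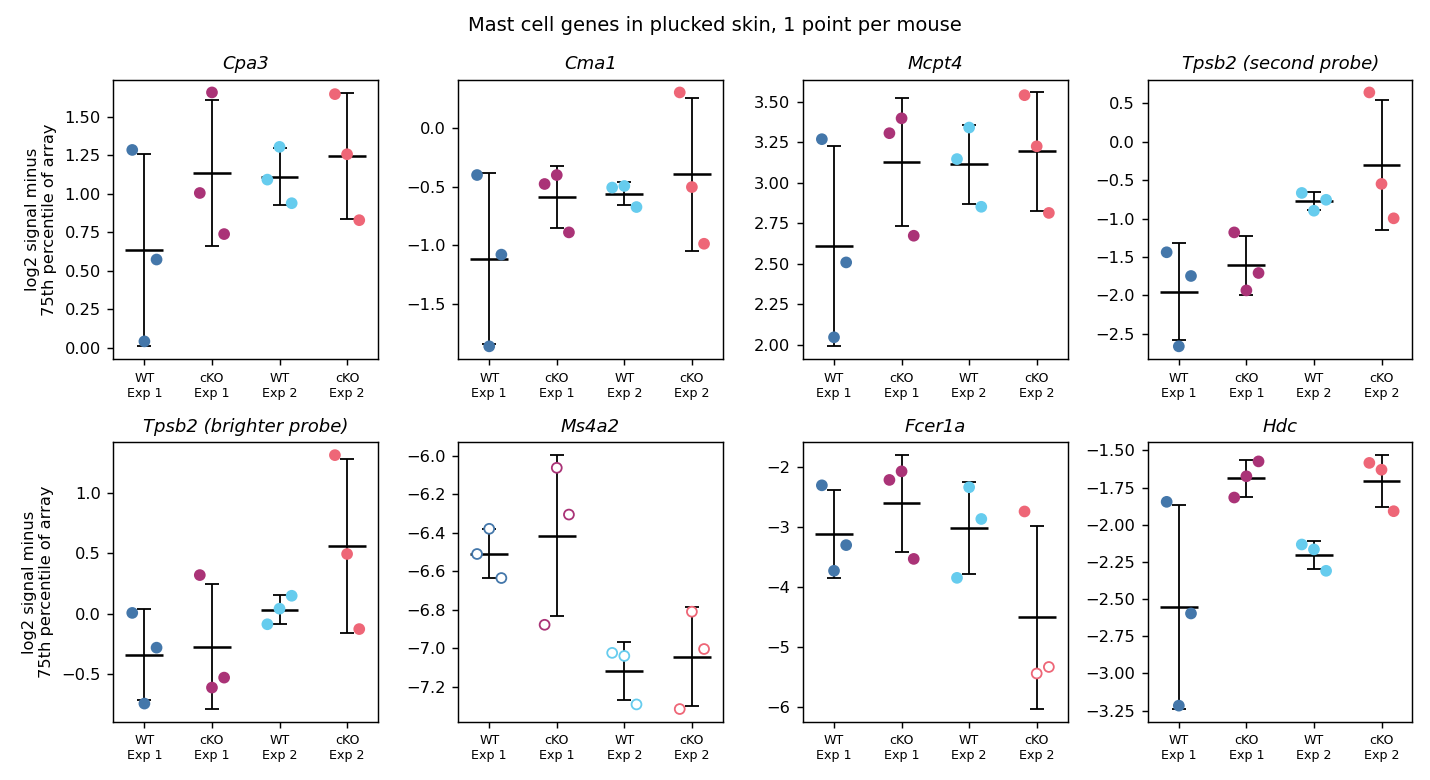
Level of each of the 8 member probes (log2 signal minus the array's 75th percentile, vertical axes of different range) in the 12 mice by group; horizontal lines are means, bars are SD (n = 3), and open circles are arrays on which the probe was not well above background. The genotypes separate within both experiments for Hdc, with cKO higher, as for 0.371% of all genes. Hdc did not pass the test (limma adjusted p = 0.208). The second Tpsb2 probe separates the experiments, as do 4.37% of kept probes, while they overlap on the brighter one. All 12 Ms4a2 readings are open circles.

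Hdc encodes histidine decarboxylase, the enzyme that makes histamine. In Exp 1 it read -1.85, -3.22 and -2.60 in WT mice 1, 2 and 3 and -1.82, -1.67 and -1.57 in cKO mice 2, 5 and 6. In Exp 2 it read -2.13, -2.17 and -2.31 in WT mice 4, 5 and 6 and -1.58, -1.63 and -1.91 in cKO mice 1, 3 and 4. Every cKO mouse lay above every WT mouse of its own experiment, by a narrow margin in Exp 1, where WT mouse 1 came close to cKO mouse 2. Hdc was the 1 tested member with this separation, which 0.371% of all genes showed in the same direction. The share of all genes with every cKO mouse below was not counted.

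The mean of Hdc was -2.38 ± 0.48 in WT and -1.70 ± 0.14 in cKO mice (SD, n = 6 each). The averaged difference was 0.68 ± 0.19 (SE), a fold of 1.60, with an unadjusted p of 0.00537 and a limma adjusted p of 0.208, and a 95% interval from 0.25 to 1.11. The differences of 0.87 in Exp 1 (limma adjusted p = 0.295) and 0.50 in Exp 2 (adjusted p = 0.977) did not pass the test, and the interaction was 0.37 ± 0.387 (SE; adjusted p = 1).

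The Hdc call turned on 1 mouse. Without WT mouse 1 the averaged difference was 0.857 and passed the test (limma adjusted p = 0.0305), and in the other 28 of 29 alternatives the adjusted p lay above the threshold, up to 0.816. The difference was 0.897 within slide 1 and 0.242 within slide 2 (limma adjusted p = 0.255 and 0.452). Slide 1 held 2 mice of each Exp 1 group and 1 of each Exp 2 group, and slide 2 held 1 mouse of each group and a second WT mouse of Exp 2, which left 2 and 1 residual degrees of freedom, so these fits have little power. It kept its positive direction in all 29 alternatives. Skeletal muscle transcripts were also higher in cKO than in WT mice (15 of 15 genes, median 2.44, 0 called). With the muscle mean as a covariate the Hdc difference was 0.612, and the part of muscle in it was not otherwise tested.

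Hdc is also expressed by basophils, neutrophils and macrophages. Between genotypes 0 of 2 tested basophil genes, 0 of 6 neutrophil and eosinophil genes and 0 of 11 macrophage genes were called, where 0.42% of all genes were. The macrophage estimates were negative in 10 of 11 genes, with a median of -0.194. Those of the neutrophil and eosinophil genes were positive in 4 of 6, with a median of 0.0913. The neutrophil gene S100a8 was 1 of the 2 negative ones, at -0.59 (limma unadjusted p = 0.00128, adjusted p = 0.109). The part of these cells in the Hdc level was not tested. The basophil genes Mcpt8 and Cd200r3 did not reach the detection filter. The mean of the neutrophil and eosinophil genes ranged from -1.11 to -0.802 in WT and from -1.14 to -0.808 in cKO mice of Exp 1, and from -1.18 to -0.797 and -1.21 to -0.621 in those of Exp 2. Hnmt, which inactivates histamine by methylation, had a difference of 0.33 ± 0.124 (SE; limma adjusted p = 0.328). None of the 5 tested genes for histamine receptors and breakdown was called.

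The high-affinity IgE receptor consists of an alpha chain that binds IgE (Fcer1a), a beta chain that amplifies the signal (Ms4a2) and a gamma chain that carries it (Fcer1g). No array had Ms4a2 well above background, with readings of -7.32 to -6.06, so no fold is given. Fcer1a was dim, and was well above background on 10 of 12 arrays.

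Fcer1a read -2.30, -3.72 and -3.29 in WT mice 1, 2 and 3 and -2.21, -2.06 and -3.52 in cKO mice 2, 5 and 6 of Exp 1. In Exp 2 it read -3.84, -2.33 and -2.86 in WT mice 4, 5 and 6 and -2.73, -5.44 and -5.33 in cKO mice 1, 3 and 4. The arrays of cKO mice 3 and 4 were those on which it was not well above background, so the group mean of -4.50 ± 1.53 (SD, n = 3) rests on 1 measured level and 2 readings at background. The other 3 groups had means of -3.10, -2.60 and -3.01 and overlapped.

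The Fcer1a difference was 0.51 ± 0.734 (SE) in Exp 1 and -1.49 ± 0.734 (SE) in Exp 2. Neither passed the test (limma adjusted p = 0.814 and 0.977), nor did the interaction of 1.99 ± 1.04 (SE; limma unadjusted p = 0.0828, adjusted p = 1). Averaged over both experiments it was -0.49 ± 0.519 (SE; limma adjusted p = 0.722), with an interval from -1.64 to 0.66 that spans differences larger than that of any other member. Within slide 1 the averaged difference was 0.119. Fcer1a is also expressed by basophils and some dendritic cells. Of 8 genes of the Langerhans cell and MHC class II list, 0 were called between genotypes, where the averaged difference called 0.42% of all genes. Their estimates were positive in 7 of 8 in Exp 1 (median 0.0744) and negative in 7 of 8 in Exp 2 (median -0.374). Over all genes the medians were -0.0162 in Exp 1 and -0.0649 in Exp 2. The part of these cells in the Fcer1a level was not tested.

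**Figure D2:**
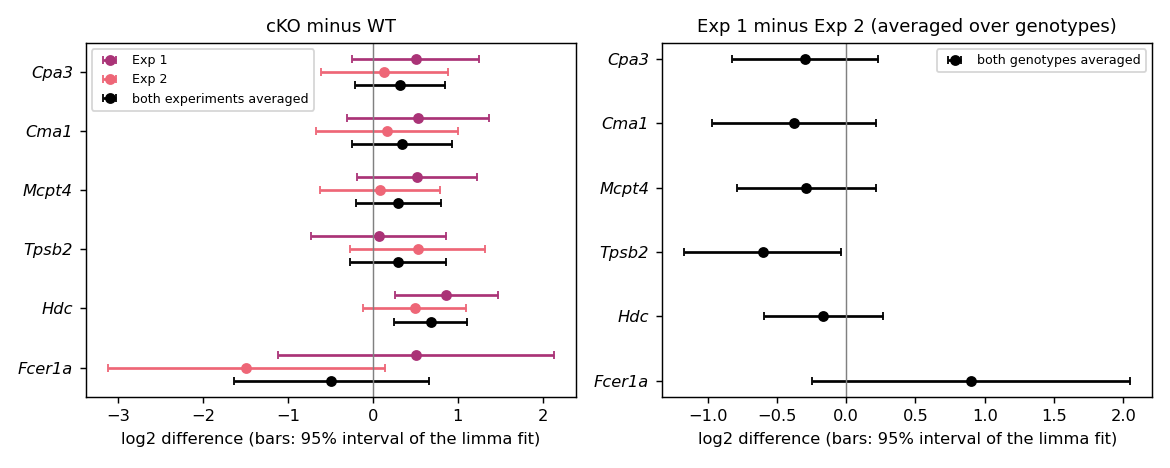
Log2 differences of the 6 tested members with 95% intervals of the limma fit, cKO minus WT on the left and Exp 1 minus Exp 2 on the right, both on linear axes. The averaged genotype interval of Hdc, from 0.25 to 1.11, lies above 0 before adjustment over all genes, and the widest intervals are those of Fcer1a.

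The comparison of Exp 1 with Exp 2 contrasts older with younger mice, together with everything else that differed between the experiments. It called 3270 genes, 20.2% of those tested, of which 1737 were higher in Exp 1 (708 of 2173 called genes when arrays were centred on their medians). None of the 6 members was among them, in either direction, and at an unadjusted p under 0.05 it took in 1 of the 6 (Tpsb2), against 35.3% of all genes. The estimates were -0.29 for Cpa3, -0.38 for Cma1, -0.29 for Mcpt4, -0.17 for Hdc and 0.90 for Fcer1a, with limma adjusted p from 0.244 to 0.581. The Fcer1a estimate crossed the threshold without cKO mouse 1 (1.34, limma adjusted p = 0.0422) and within slide 2 (2.16, adjusted p = 0.0113), and was -0.656 within slide 1. In both fits that crossed it, the cKO mice of Exp 2 entered only with readings at background (cKO mice 3 and 4, and cKO mouse 4 alone), so these values are not reliable sizes.

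The probes of Tpsb2 gave different calls. The brighter probe averaged -0.31 ± 0.41 in Exp 1 and 0.30 ± 0.55 in Exp 2 (SD, n = 6 each), a difference of -0.60 ± 0.254 (SE; limma adjusted p = 0.118). The second probe read -1.44, -2.67 and -1.75 in WT mice 1, 2 and 3 and -1.18, -1.94 and -1.71 in cKO mice 2, 5 and 6 of Exp 1. It read -0.67, -0.90 and -0.76 in WT mice 4, 5 and 6 and 0.64, -0.55 and -0.997 in cKO mice 1, 3 and 4 of Exp 2. Every mouse of Exp 1 lay below every mouse of Exp 2 on this probe, as for 4.37% of kept probes, whereas the experiments overlapped on the brighter one.

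When each kept probe was tested on its own, the second Tpsb2 probe fell in Exp 1 relative to Exp 2 by 1.24 ± 0.298 on the log2 scale (SE; limma adjusted p = 0.0175), one of 19.6% of kept probes called. It was the only call among the 7 member probes tested in this way. The levels on both probes correlated at r = 0.92 (Spearman's rho 0.853) over the 12 mice, and cKO mouse 2 lay above the 3 WT mice of Exp 2 on the brighter probe and below them on the second. The mean of both probes gave -0.923 (limma adjusted p = 0.0372). The second probe was not used for the gene because it was the dimmer one.

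Skeletal muscle transcripts moved with the experiments: 15 of 15 muscle genes were lower in Exp 1 and called, by a median of 6.1 log2 units. With the muscle mean as a covariate the second Tpsb2 probe stood at -1.12 ± 0.661 (SE; limma adjusted p = 0.414), a fit in which 0 of all 16181 genes passed for this comparison. The part of muscle in the difference was not tested beyond this fit. Within slide 1 the difference was -1.7 and within slide 2 it was -0.834 (limma adjusted p = 0.114 and 0.0835).

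Differences between single mice ran in parallel for 3 proteases. Over the 12 mice the level of Mcpt4 correlated with that of Cpa3 at r = 0.959, Cma1 with Cpa3 at 0.932 and Cma1 with Mcpt4 at 0.942. After subtracting group means these were 0.943, 0.905 and 0.922, and without the 2 mice farthest from the median they were 0.937, 0.936 and 0.947. The points share an array each, and so its scaling. Hdc correlated with Cpa3 at 0.77 over all mice and at 0.479 without WT mouse 2 and cKO mouse 5, so that relation rested in part on those mice.

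Tpsb2, by its brighter probe, correlated with Cpa3 at r = 0.561, with Mcpt4 at 0.634 and with Cma1 at 0.761. These values rested on few mice: without the 2 farthest from the median they were 0.808 (without WT mouse 2 and cKO mouse 5), 0.504 (without WT mice 2 and 3) and 0.333 (without WT mouse 2 and cKO mouse 1). Fcer1a had r between 0.0186 and 0.355 to the other members, and between 0.375 and 0.79 once group means were subtracted. By Spearman's rho it correlated with Cpa3 at 0.517, Cma1 at 0.643 and Mcpt4 at 0.622, but with Tpsb2 at 0.0699 and Hdc at 0.119. The Fcer1a readings at background in cKO mice 3 and 4 lay where Cpa3 read 1.26 and 0.83, inside the range of the other mice. The mean of the 6 standardised levels was lowest in WT mouse 2 (-1.8) and highest in cKO mouse 1 (1.37). These correlations are descriptions over 12 mice, with no test.

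**Figure D3:**
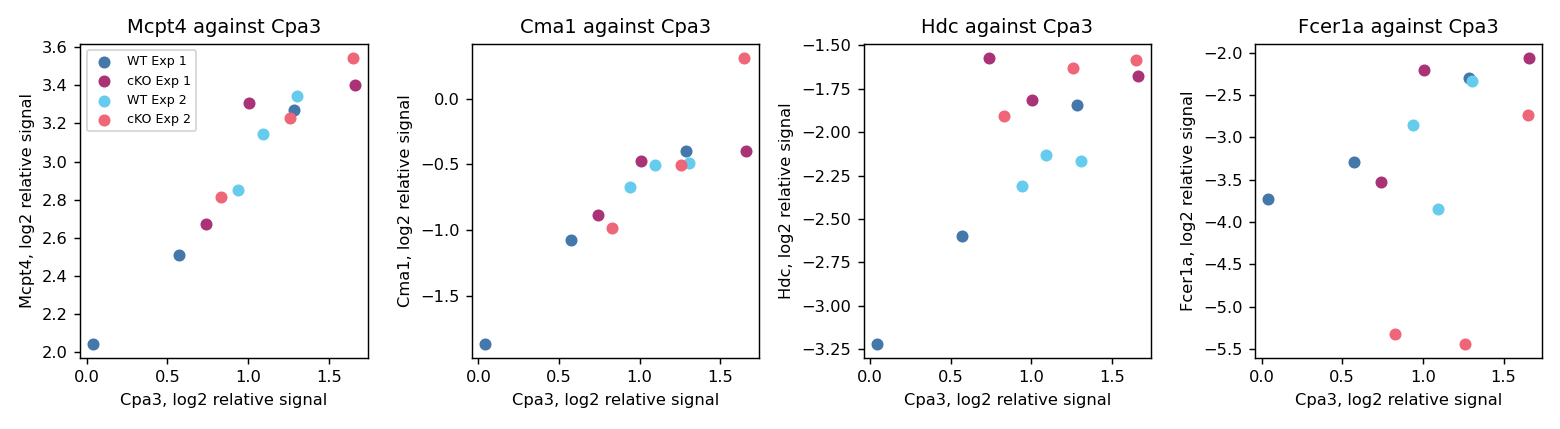
Level of Mcpt4, Cma1, Hdc and Fcer1a against that of Cpa3 in the 12 mice (log2 signal minus the array's 75th percentile on both axes), coloured by group. Mcpt4 (r = 0.959) and Cma1 (r = 0.932) follow Cpa3, WT mouse 2 lies at the lower left of each panel except that of Fcer1a, and in that panel cKO mice 3 and 4 lie far below the others.

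The gene whose level most resembled the mean standardised level of the members, among the 16175 tested genes outside the set, was Cma2 (r = 0.917 over 12 mice). Cma2 is a chymase gene of the same locus, and Mcpt-ps1 (r = 0.825) is a pseudogene of that family. Probes of such near relatives can read each other's transcripts, so these likenesses are uncertain. The other 8 of the 10 most alike genes were Cyp11a1 (0.839), which makes pregnenolone from cholesterol, Ppp2r2b (0.837), Slc2a10 (0.835), Col24a1 (0.824), the cytokine Il4 (0.82), Bcat2 (0.816), Fmnl1 (0.812) and Scn2b (0.808). Il4 was well above background on 3 arrays, Fmnl1 on 5 and Col24a1 on 6, so their likeness rests on dim readings. Gata2, which directs mast cell development, had r = 0.688 and ranked 85, and Tph1, which starts serotonin synthesis, had r = 0.695 and ranked 77. Other genes of the mast cell lists varied in their likeness to the members. Hnmt had r = 0.606 (rank 223), Mrgprb1 0.581 (rank 290), Ndst2 0.478, Tpsg1 0.473 and Mrgprb2 0.297. Mitf had r = -0.448 (rank 13688), Kit -0.25 (rank 11082), Srgn -0.251, Cd63 -0.477 and Fcer1g -0.0678.

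Other genes of mast cells were taken from lists on proteases, granule and mediator genes, receptors, IgE receptor signalling, transcription factors, growth factors, and histamine receptors and breakdown. None was called between genotypes in any of the 7 lists, where the averaged difference called 0.42% of all genes. The averaged estimates were negative in 10 of 12 tested receptors (median -0.158) and 8 of 9 signalling genes (median -0.107). They were positive in 8 of 13 granule and mediator genes, 5 of 7 transcription factors and 3 of 5 tested genes in each remaining list. Of all genes, 42.3% had a positive estimate. Of other proteases, Cma2 had a genotype difference of 0.32 ± 0.239 (SE) and Gzmb, which encodes granzyme B and was well above background on 5 of 12 arrays, 0.52 ± 0.276 (SE). The smallest p among receptors were those of Cd200r1, an inhibitory receptor (-0.70 ± 0.195, SE; limma adjusted p = 0.194), and Mrgprb2 (0.57 ± 0.179, SE; adjusted p = 0.257). Ptgs2, the inducible cyclooxygenase, had a difference of 0.79 ± 0.275 (SE; limma adjusted p = 0.298), with 6 of 12 arrays well above background. Kit, the stem cell factor receptor on which mast cells depend, read -0.31 in cKO mouse 5 and 0.73 to 1.70 in the other 11 mice. Melanocytes also express Kit, and in the same mouse the mean of 8 melanocyte genes was -0.543, against 2.67 to 3.3 in the mice of the other 3 groups. The highest mean in the group of cKO mouse 5 was 3.18. That mouse was also the lowest of the 12 for the adipocyte gene Adipoq (0.10) and the highest for Krt1 (8.26) and Il33 (3.03). The part of melanocytes in the Kit level was not tested.

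Between the experiments 11 of the 55 tested genes of these lists were called, in both directions. Their share of 20% lay at the 20.2% of all genes, so the calls are no result particular to mast cell genes. Among 12 tested receptors 2 were higher and 3 lower in Exp 1. Mrgprb2, the mast cell receptor for cationic peptides, averaged -1.77 ± 0.66 in Exp 1 and -2.75 ± 0.18 in Exp 2 (SD, n = 6 each), a rise of 0.97 ± 0.179 (SE; limma adjusted p = 0.00634). Its 3 highest mice were the cKO mice of Exp 1, at -1.26, -0.82 and -1.78, and WT mouse 2, at -2.70, overlapped with Exp 2. Adora3, an adenosine receptor that enhances degranulation, rose by 0.58 (adjusted p = 0.0308), a call lost without any one of WT mice 1, 3, 4 and 6 and cKO mice 3 and 4 (0.52 to 0.582, limma adjusted p from 0.059 to 0.0741).

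Il1rl1, the IL-33 receptor chain, averaged -2.0 ± 0.24 in Exp 1 and -0.99 ± 0.28 in Exp 2 (SD, n = 6 each). It fell by 1.01 on the log2 scale (SE 0.151; limma adjusted p = 0.0033). Every mouse of Exp 1 lay below every mouse of Exp 2, as for 4.37% of kept probes. Ptger3, a prostaglandin E2 receptor, fell by 1.03 (limma adjusted p = 0.00771), also with no overlap (-2.27 to -1.01 in Exp 1 and -0.86 to -0.19 in Exp 2). Fcer1g fell by 0.48 (limma adjusted p = 0.0205; without cKO mouse 3 by 0.419, adjusted p = 0.0506). Fcer1g, the receptor chain shared with macrophages and other myeloid cells, read 2.03 to 2.88 in Exp 1 and 2.62 to 3.25 in Exp 2. Macrophage markers moved with these genes: 8 of 11 were lower in Exp 1 and called, where 1533 of all 16181 genes were. Their mean was 0.146 to 1.04 in Exp 1 and 1.34 to 1.72 in Exp 2. The part of macrophages in the result was not tested.

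**Figure D4:**
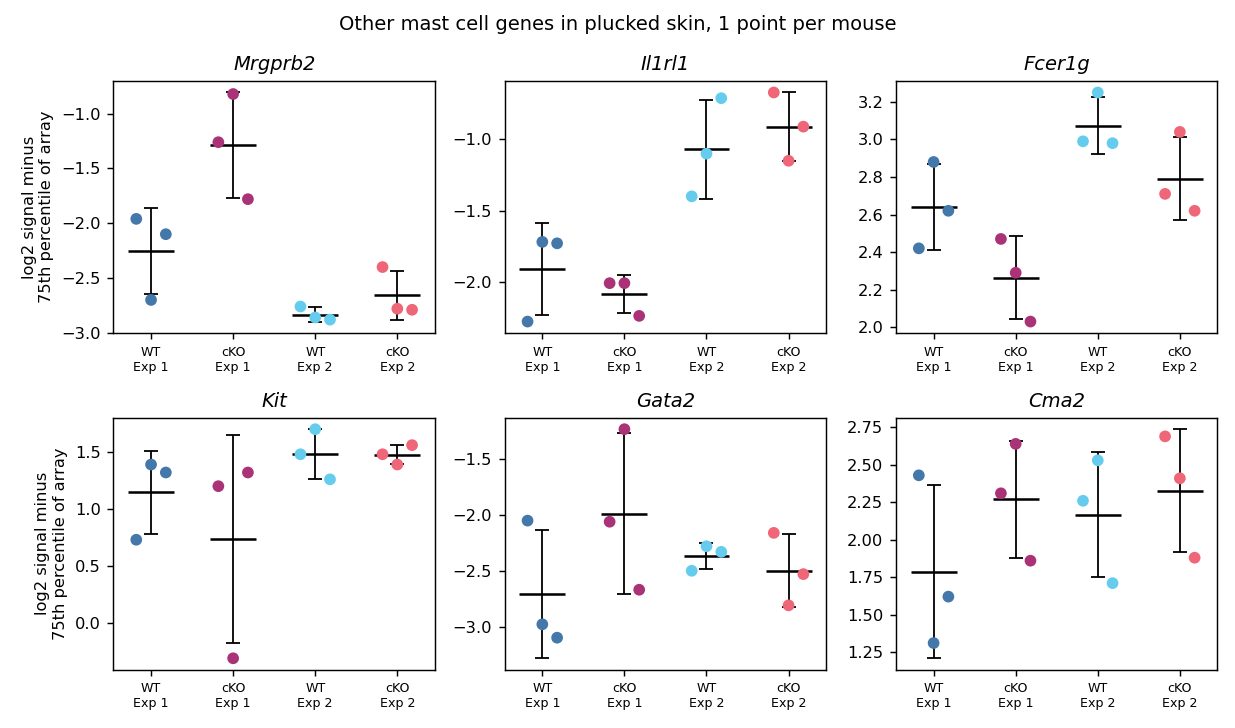
Level of 6 other mast cell genes (log2 signal minus the array's 75th percentile, vertical axes of different range) in the 12 mice by group, with means and SD (n = 3). Il1rl1 is lower in all mice of Exp 1 than in those of Exp 2, as are 4.37% of kept probes. Mrgprb2 is highest in cKO mice of Exp 1, and cKO mouse 5 stands apart at -0.31 for Kit.

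Among 13 granule and mediator genes 2 were higher and 2 lower in Exp 1, to be read against the same 20.2%. Ptgs1, the constitutive cyclooxygenase, rose by 1.02 ± 0.241 (SE; limma adjusted p = 0.016) and Rab27b, a regulator of granule release, by 0.47 (adjusted p = 0.0367). The call of Rab27b was lost without any one of WT mice 1, 2, 3, 4 and 6 and cKO mice 1, 3, 4 and 6 (0.413 to 0.499, limma adjusted p from 0.0504 to 0.0804). The leukotriene genes Ltc4s and Alox5ap fell by 0.52 and 0.44 (limma adjusted p = 0.0189 and 0.0145), and Ltc4s by 0.5 without WT mouse 4 (adjusted p = 0.0505). Of 9 signalling genes, the adaptor Lat rose by 0.75 and the kinase Syk fell by 0.69 (limma adjusted p = 0.0113 and 0.00972). T cells also express Lat, and 4 of 9 T cell markers were higher in Exp 1 and called, where 1737 of all 16181 genes were. Of these 9 markers, 3 had negative estimates, and the part of T cells in the Lat level was not tested. None of the 7 transcription factors, 5 tested growth factors, 5 other proteases or 5 histamine genes was called. As for all genes, no call between the experiments held with the muscle covariate.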

How the data were processed

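Per the file headers, the scanner files hold Feature Extraction 11.5.1.1 values: a background-subtracted processed intensity, raw median intensities of spot and background, and flags. The authors' deposited table holds log2 values. The submitters' processing notes name limma, with no further step given. In that table the column of cKO mouse 1 correlated at 0.946 with its own array and 0.947 with that of WT mouse 6, so the table served only as an alternative.

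Outlier spots were dropped, the log2 processed intensity was averaged per probe (90 missing values), and each array's 75th percentile was subtracted. Of 55681 probes, 27509 were named through RefSeq accessions (GRCm38.p6 table), and the other 28172 were left out of gene tests. Probes well above background on at least 3 of 12 arrays were kept, and the brightest per gene gave 16181 genes. A model with 4 group means was fitted to these (limma 3.58.1, R 4.3.3; residual degrees of freedom 8, prior 2.3), with 5 two-sided contrasts, Benjamini-Hochberg adjustment over all genes and a threshold of 0.05. The fit was tested on simulated data.

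The members and gene lists were chosen with earlier results of these data known. Genes named from the lists were those past the threshold, otherwise up to 4 per list with the smallest p; Kit and the cell markers were described after their values were seen. The 10 genes most like the members were ranked by Pearson correlation. The labels name separate mice; slide was read from array names (slide 1 held 6 arrays, slide 2 held 5 and slide 3 held 1).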

Additional observations from a re-analysis of the deposited data

How the results depend on the processing

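The 6 members were refitted under 29 alternatives (scaling, background correction, filters, probe choice, variance trend, array weights, slide, array-name tag, muscle covariate, the authors' table, replicate block and each mouse left out). No member was called within Exp 1, within Exp 2 or in the interaction in any of them. With 1 mouse left out, the number of members called ranged from 0 to 1 for the averaged genotype difference (Hdc, 0.857, without WT mouse 1) and from 0 to 1 between experiments (Fcer1a, 1.34, without cKO mouse 1, where the cKO mice left in Exp 2 read at background). Between experiments 1 member was also called with no filter (Ms4a2, at background on every array), with the mean of all kept probes (Tpsb2, -0.923) and within slide 2 (Fcer1a, 2.16, with 1 residual degree of freedom). The median over members between experiments was -0.848 within slide 1 and 0.408 within slide 2.

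Several differences, none past the test, changed sign. With 1 mouse left out they ranged from -0.069 to 0.341 (Cpa3), -0.187 to 0.459 (Cma1) and -0.0939 to 0.27 (Mcpt4) for the genotype in Exp 2, from -0.231 to 0.239 for Tpsb2 in Exp 1, from -0.012 to 0.719 for the Cma1 interaction, and from -0.343 to 0.000279 for Hdc between experiments. Median scaling gave -0.00849 (Cpa3) and -0.061 (Mcpt4) in Exp 2. Within slide 1, Fcer1a was 0.119 for genotype and -0.656 between experiments, and the Cma1 interaction -0.0106. Within slide 2 the averaged genotype differences were -0.198 (Cma1), -0.0277 (Mcpt4) and -0.388 (Tpsb2), those in Exp 1 -0.00027 (Cma1) and -0.618 (Tpsb2), those in Exp 2 -0.187 (Cpa3), -0.397 (Cma1), -0.185 (Mcpt4) and -0.158 (Tpsb2), the Hdc interaction -0.14, and those between experiments 0.551 (Cpa3), 0.388 (Cma1), 0.427 (Mcpt4) and 0.305 (Hdc). The tag term gave -0.13 (Mcpt4, Exp 2) and 0.075 (Tpsb2 interaction), and the muscle covariate 0.00833 (Hdc between experiments). The authors' table gave interactions of -0.119 (Mcpt4) and -0.358 (Hdc), and without its cKO mouse 1 column Exp 2 differences of -0.0269 (Cpa3), -0.164 (Cma1) and -0.00875 (Mcpt4). The cause was not tested. The mean over probes filled missing values with the probe's mean, and the array weights stopped before convergence.

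The replicate numbers did not pair the mice within experiments: the WT and cKO mice numbered 1, 3, 5 and 6 came from different experiments. Deviations of same-numbered mice from their group means correlated between -0.26 and 0.0717, a weak check with 3 mice per group. With the replicate block, 4 genes in all were called for the averaged genotype difference, against 68 without it. The Hdc difference stayed at 0.68 (limma adjusted p = 0.444). The block gave member medians of 1.05 in Exp 1, -0.397 in Exp 2 and 1.41 for the interaction. Its Exp 2 differences were -0.297 (Cpa3), -0.589 (Cma1), -0.498 (Mcpt4) and -0.256 (Tpsb2), and its Tpsb2 interaction 1.1.

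Leaving aside the fits within 1 slide and of every probe, the count of all genes called ranged from 4 to 312 (genotype averaged), 2 to 99 (Exp 1), 1 to 33 (Exp 2), 0 to 2 (interaction) and 0 to 4510 (experiment). Within slide 1 (2 residual degrees of freedom) the counts were 80, 1, 79, 7 and 61, and within slide 2 (1 residual degree of freedom) 473, 1315, 7, 392 and 3368. The fit of every probe called 6933 of 35371 probes between experiments. The experiment count fell to 1994 without WT mouse 4 and 2138 without cKO mouse 3. The genotype count was 31 to 43 without any one of WT mice 2, 3, 4 and 5 and cKO mice 1, 3 and 4, and 106 and 122 without cKO mice 5 and 6. The 11 called mast cell genes kept their direction in 29 of 29 alternatives and their call in 14 (Rab27b) to 26 (Il1rl1, Ptger3, Syk). The second Tpsb2 probe kept its direction in 25 of 25 settings, chosen after seeing the data, and its call in 21. Ms4a2 and, in cKO mice of Exp 2, Fcer1a are limited by signal near background.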
